A study of Homo sapiens with 15 samples.

Results

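Of the 13056 genes with a value in the table, 9 are described here that were displaced from the control hairpin in the same direction in all 6 knockdowns. They are GYG2, NFE2L3, RTCA, HSPA4L, COMMD3, ELP5, FKBP11, E2F7 and MME, and they were chosen by name from these data because of that displacement. The measurement was PDUI, an index of distal poly(A) site usage. For each gene it estimates which fraction of its RNA runs on to the downstream poly(A) site instead of stopping upstream, with 1 where all of it does.

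The cells were HEK293T, a human embryonic kidney line, carrying short hairpin RNAs. The 6 knockdown groups had 2 libraries each: shHDAC1 (a histone deacetylase), shPABPN1 (the nuclear poly(A)-binding protein), shPCBP2 (a poly(C)-binding protein), shSF3B4 (a subunit of the U2 snRNP), shU2AF2 (a splicing factor that recognises the polypyrimidine tract) and shZNF384 (a zinc finger factor). The control group, shControl, had 3 libraries and a genotype labelled WT. Nuclear RNA and total RNA are both mentioned in the labels, and messenger RNA was taken on oligo(dT) beads. The names of the 3 shControl libraries end in nuc, and those of the 12 knockdown libraries do not. What nuc marks is not stated, so any effect of it and a difference shared by all 6 knockdowns cannot be told apart.

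Most human genes can end their messenger RNA at more than one place in the last exon. Cleavage follows a poly(A) signal, most often the hexamer AATAAA in the DNA sense strand, and the choice of an upstream or downstream signal sets how much sequence follows the stop codon. Nuclear poly(A)-binding protein and splicing factors at the last intron are known to bear on that choice. PDUI reports the share of the longer form in the RNA present, so it does not separate site choice from unequal loss of the forms. It does not report the amount of RNA, so the strength of the knockdowns could not be checked. In RNA from many cells it also cannot show whether all cells shifted a little or some shifted fully.

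The transcripts behind the 9 values were looked up in GENCODE release 29 on GRCh38, where all 9 were found, 7 of them in the same version. Of the 9, 7 were protein-coding transcripts and 2 were annotated as retained introns, against 77.8% and 3.6% of the 12704 matched transcripts of the table. The retained introns were those of COMMD3 and FKBP11, and the FKBP11 transcript is a single exon of 4957 bases. For these 2 genes the named transcript is not annotated as coding, and whether the index compares ends of a coding transcript is not known. The median last exon was 2593 bases long in the 9 genes and 1372 bases in the table. In 5 of the 9 the last exon overlaps an exon of another gene, against 25.6% of the table. These are HSPA4L with AC093591.2, COMMD3 with COMMD3-BMI1, ELP5 with CLDN7, FKBP11 with AC073610.2 and CCDC65, and MME with MME-AS1. COMMD3-BMI1 and AC073610.2 lie on the same strand as the gene they overlap, and the others lie on the opposite strand. For the opposite-strand overlaps it is unknown whether reads were assigned by strand. For the same-strand overlaps, strand could not separate the reads in either case. The values of these 5 genes are therefore uncertain.

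In 6 of the 9 genes another annotated transcript ends at least 100 bases before the measured end, with AATAAA or ATTAAA starting in the 50 bases before that upstream end. The share in the table was 19.8%. With or without a hexamer, such an upstream end was annotated in 8 of the 9 genes, against 59.3% of the table. Last exons were longer in the 9 genes than in the table, and these shares were not adjusted for length. The table does not say which proximal site the authors used, so these upstream ends are annotation and not the sites measured. They were taken from annotated transcripts of any type, complete or not, so such an end need not be a poly(A) site. The sequences are shown because each pair sets a hexamer near an annotated short end beside the long end of the same exon. At the long end 4 of the 6 genes hold a hexamer as well. Each sequence is 30 bases from the GENCODE transcript, 5′ to 3′, with the hexamer in capitals. Where both hexamers were in the 50 bases, AATAAA was marked.

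RTCA, annotated upstream end, chr1:100291737-100291766, plus strand: ttgaagtattgaAATAAAatattctttaca
RTCA, measured end, chr1:100292732-100292761, plus strand: gtgttattaacaAATAAAtgagtgtctttc
ELP5, annotated upstream end, chr17:7258735-7258764, plus strand: cacgggagagaaAATAAAagctgcagaggt
ELP5, measured end, chr17:7259896-7259925, plus strand: acccccgtacctAATAAAaatctttatttt
NFE2L3, annotated upstream end, chr7:26186256-26186285, plus strand: gctttctatggaAATAAAttttgtatttgt
NFE2L3, measured end, chr7:26187090-26187119, plus strand: ttggatttttatAATAAAgtttcccaagac
COMMD3, annotated upstream end, chr10:22319242-22319271, plus strand: cttgctgattgaAATAAActtctgtagtgt
COMMD3, measured end, chr10:22320268-22320297, plus strand: tattacaccctgAATAAAtaaggtgttgtt
MME, annotated upstream end, chr3:155181554-155181583, plus strand: aaatattttgatAATAAAttgaaattgtga
MME, measured end, chr3:155183700-155183729, plus strand: tactattgcttttatgcctagtcaactctg
FKBP11, annotated upstream end, chr12:48921961-48921990, minus strand: gaaataataaatAATAAAttttaaaaaact
FKBP11, measured end, chr12:48921518-48921547, minus strand: atccctacatttctcaaaaaaaaaaaaaaa

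The annotated upstream end lay 998 bases before the measured end in RTCA, 1149 in ELP5, 808 in NFE2L3, 1025 in COMMD3, 2145 in MME and 441 in FKBP11. In the same order, the upstream hexamer shown starts 22, 35, 49, 27, 18 and 19 bases before that upstream end. In NFE2L3 an ATTAAA starts nearer to it, at base 1754 of the exon, with the upstream end at base 1785. No AATAAA or ATTAAA starts in the last 50 bases of the MME and FKBP11 transcripts, and for these the last 30 bases are printed. In MME an AATAAA starts 1 base outside that window, at base 3320 of the 3370 of the exon, and another annotated transcript ends at base 3349. In ELP5 the upstream hexamer starts at base 160 of the last exon, inside the coding part of the measured transcript. After the annotated coding end 1146 bases of that exon follow. The FKBP11 transcript ends in a run of A. AATAAA was in the last 50 bases of 6 of the 9 transcripts and of 60.7% of the table's. With ATTAAA counted as well, the share was 7 of 9 against 74.6%. Only the transcript strand was searched, and the hexamers can overlap each other.

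The other 3 genes show a signal at the measured end without such an upstream pair. GYG2 ends after ATTAAA, and HSPA4L and E2F7 after AATAAA. The last exon of HSPA4L is the longest of the 9, at 8051 bases, and holds 9 copies of AATAAA and 14 of ATTAAA.

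GYG2, measured end, chrX:2882788-2882817, plus strand: tggcacgttgaaATTAAAatgttaaaaaac
HSPA4L, measured end, chr4:127840688-127840717, plus strand: tcgtgtaattatAATAAAtatgtctaccta
E2F7, measured end, chr12:77021254-77021283, minus strand: ttataaaatagcAATAAAaaataattcatt

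**Figure D1:**
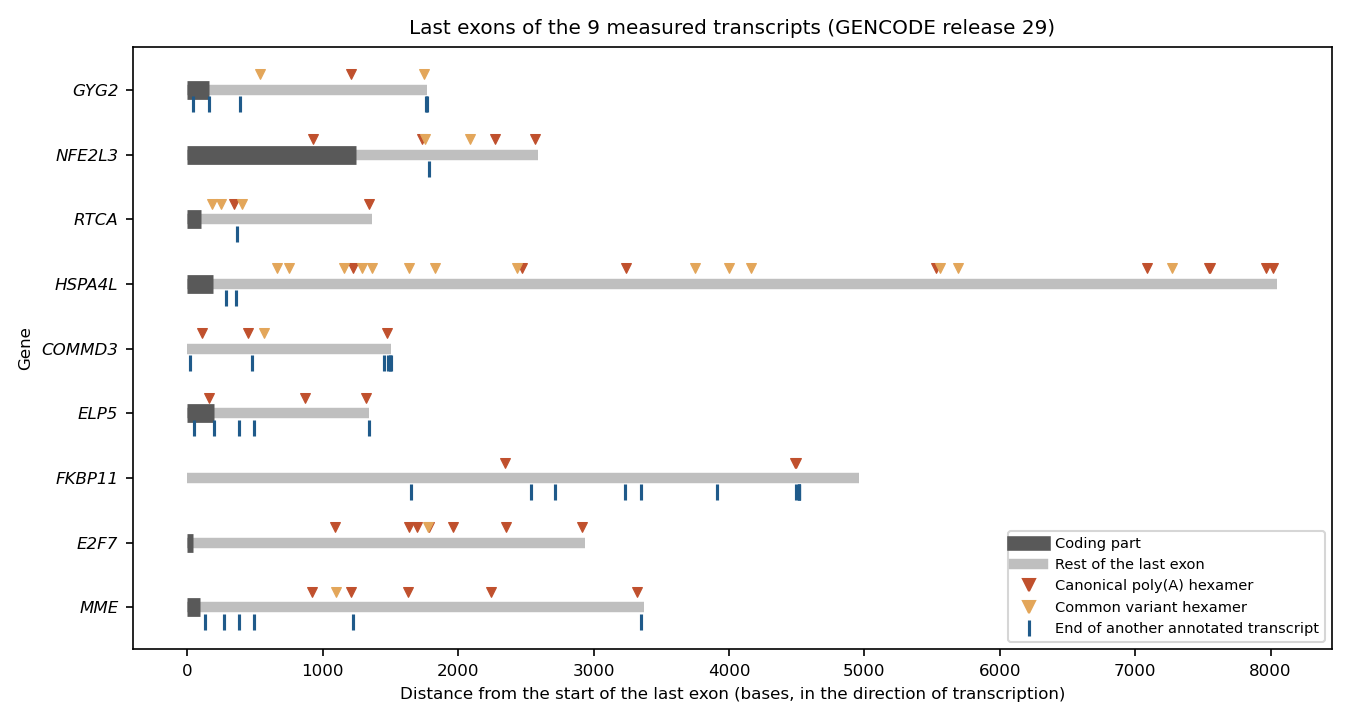
Last exons of the 9 measured transcripts, drawn to scale from the start of the exon in bases. Dark bars are coding sequence, triangles are poly(A) hexamers and blue ticks are ends of other annotated transcripts of the same gene. COMMD3 and FKBP11, annotated as retained introns, have no coding part, and the HSPA4L exon is the longest at 8051 bases.

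All 9 genes had a value in all 15 libraries. In each, the 12 knockdown libraries lay outside the range of the 3 shControl libraries, above it in 7 genes and below it in E2F7 and MME. In the table, 38 of the 11353 genes with a value in all libraries (0.335%) had all 12 knockdown libraries above shControl, and 9 (0.0793%) had all 12 below. The 9 genes were chosen on this contrast, so nothing is read from these counts, and differences from shControl are given below as a description without a test. The distance between the knockdown and control ranges was 0.01, the smallest step of the 2-decimal table, in NFE2L3, HSPA4L, COMMD3 and ELP5. It was 0.02 in RTCA, FKBP11 and E2F7, 0.08 in GYG2 and 0.1 in MME.

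Libraries differed in their typical PDUI, which bears on the smaller shifts. Over the 11353 complete genes the median was between 0.53 and 0.61 in the knockdown libraries, against 0.51 in shControl replicate 1 and 0.58 in both other control libraries. When each library was centred on its median, 4 of the 9 genes still had all 12 knockdown libraries outside the control range: GYG2 and ELP5 above, E2F7 and MME below. In the table, centring turned the 38 genes above and 9 below into 14 above and 23 below. Centring changed the direction of 2 of the 54 mean differences from shControl, both in HSPA4L: to −0.0017 in shHDAC1 and to −0.0117 in shSF3B4. Without shControl replicate 1, the mean of the 12 knockdown libraries minus shControl was 0.0525 to 0.181 in the 7 genes that were higher, −0.172 in E2F7 and −0.407 in MME.

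**Figure D2:**
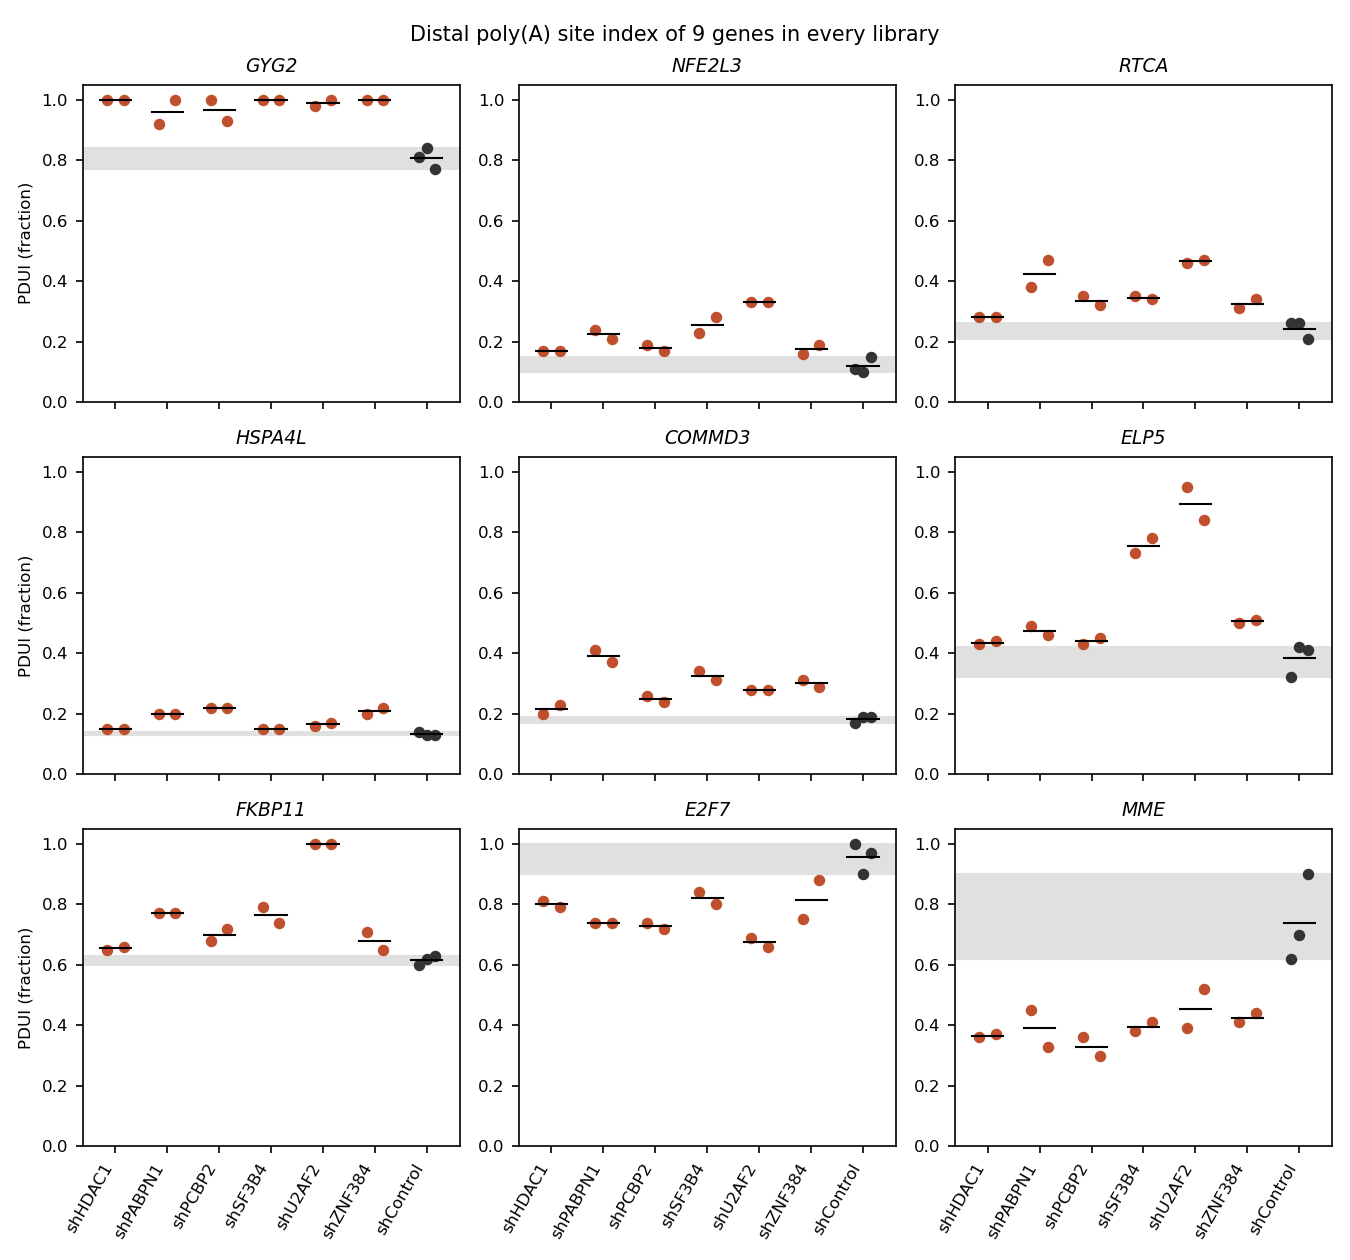
PDUI (fraction, vertical axis) of each gene in every library, with the 6 knockdowns on the left and shControl on the right. Points are libraries, short lines are group means and the grey band is the range of shControl. No knockdown point enters the band, and points of NFE2L3, HSPA4L, COMMD3 and ELP5 come within 0.01 of it.

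Among the genes of RNA metabolism, ELP5 encodes a subunit of Elongator, the complex that modifies uridines of transfer RNA. Its PDUI was 0.43 and 0.44 in shHDAC1, 0.49 and 0.46 in shPABPN1, 0.43 and 0.45 in shPCBP2, 0.73 and 0.78 in shSF3B4, 0.95 and 0.84 in shU2AF2, and 0.5 and 0.51 in shZNF384. The shControl libraries stood at 0.32, 0.42 and 0.41. The 2 splicing factor knockdowns were far above the rest, and the other 4 lay between 0.43 and 0.51. The difference from shControl was 0.512 (SE 0.0403) in shU2AF2, 0.372 in shSF3B4 and 0.0517 in shHDAC1, the smallest. Among its 7 group means in order, the only neighbours with overlapping libraries were shHDAC1 and shPCBP2.

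CLDN7, a claudin of tight junctions on the opposite strand, has a last exon that overlaps that of ELP5. Its PDUI was 0.88 and 0.51 in shU2AF2 and 0.17, 0.31 and 0.8 in shControl, and it had no value in either shSF3B4 library. The lowest of its 13 values was 0.001, in a shPABPN1 library, and its control libraries were spread over more than those of ELP5.

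RTCA is the RNA 3′-terminal phosphate cyclase, which closes a cyclic phosphate at RNA ends. Its PDUI was 0.28 and 0.28 in shHDAC1, 0.38 and 0.47 in shPABPN1, 0.35 and 0.32 in shPCBP2, 0.35 and 0.34 in shSF3B4, 0.46 and 0.47 in shU2AF2, and 0.31 and 0.34 in shZNF384. The shControl libraries stood at 0.26, 0.26 and 0.21. shU2AF2 and shPABPN1 were the high groups and overlapped each other, while shHDAC1 lay 0.02 above the highest control. The difference from shControl was 0.222 (SE 0.0258) in shU2AF2, 0.182 in shPABPN1 and 0.0367 in shHDAC1.

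Transcription factors moved in both directions. NFE2L3, a leucine zipper factor of the CNC family, read 0.17 in both shHDAC1 libraries, 0.24 and 0.21 in shPABPN1, 0.19 and 0.17 in shPCBP2, 0.23 and 0.28 in shSF3B4, 0.33 in both shU2AF2 libraries, and 0.16 and 0.19 in shZNF384. In shControl it read 0.11, 0.1 and 0.15. Distal use stayed the minor form in every library, with the highest values in shU2AF2. The difference from shControl was 0.21 (SE 0.019) in shU2AF2 and 0.05 in shHDAC1. shHDAC1, shZNF384 and shPCBP2 overlapped one another.

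E2F7, an atypical E2F factor that represses transcription of cell cycle genes, was lower than shControl in all knockdowns. It read 0.81 and 0.79 in shHDAC1, 0.74 and 0.74 in shPABPN1, 0.74 and 0.72 in shPCBP2, 0.84 and 0.8 in shSF3B4, 0.69 and 0.66 in shU2AF2, and 0.75 and 0.88 in shZNF384. The shControl libraries stood at 1, 0.9 and 0.97. The distal end was the main one throughout, and the higher shZNF384 library came within 0.02 of the lowest control. The difference was −0.282 (SE 0.0402) in shU2AF2 and −0.137 in shSF3B4, the smallest in size.

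Both genes of protein folding were higher. FKBP11, a prolyl isomerase of the FK506-binding family in the secretory pathway, read 0.65 and 0.66 in shHDAC1, 0.77 and 0.77 in shPABPN1, 0.68 and 0.72 in shPCBP2, 0.79 and 0.74 in shSF3B4, 1 and 1 in shU2AF2, and 0.71 and 0.65 in shZNF384. In shControl it read 0.6, 0.62 and 0.63. Both shU2AF2 libraries were at the top of the scale, apart from all others. The difference from shControl was 0.383 (SE 0.0292) in shU2AF2 and 0.0383 in shHDAC1. This is the retained-intron transcript of a single exon.

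HSPA4L, an HSP110-type chaperone that acts with HSP70, had the smallest mean difference of the 9 genes, 0.0492 over the 12 knockdown libraries. It read 0.15 in both shHDAC1 libraries, 0.2 in both of shPABPN1, 0.22 in both of shPCBP2, 0.15 in both of shSF3B4, 0.16 and 0.17 in shU2AF2, and 0.2 and 0.22 in shZNF384. The shControl libraries stood at 0.14, 0.13 and 0.13. shPCBP2, shZNF384 and shPABPN1 formed the upper end, and shHDAC1 and shSF3B4 lay 1 step of the table above the controls. The difference was 0.0867 (SE 0.0065) in shPCBP2 and 0.0167 in both shHDAC1 and shSF3B4.

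COMMD3 encodes a subunit of the COMMD complex, which takes part in recycling of membrane proteins from endosomes. Its PDUI was 0.2 and 0.23 in shHDAC1, 0.41 and 0.37 in shPABPN1, 0.26 and 0.24 in shPCBP2, 0.34 and 0.31 in shSF3B4, 0.28 and 0.28 in shU2AF2, and 0.31 and 0.29 in shZNF384. The shControl libraries stood at 0.17, 0.19 and 0.19. Here shPABPN1 was the highest group and did not overlap any other. The difference from shControl was 0.207 (SE 0.0157) in shPABPN1 and 0.0317 in shHDAC1. The last exon of the measured COMMD3 transcript overlaps an exon of COMMD3-BMI1 on the same strand. COMMD3-BMI1 is a read-through into the neighbouring gene BMI1.

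GYG2 is the second glycogenin, the protein primer on which glycogen is built. It read 1 and 1 in shHDAC1, 0.92 and 1 in shPABPN1, 1 and 0.93 in shPCBP2, 1 and 1 in shSF3B4, 0.98 and 1 in shU2AF2, and 1 and 1 in shZNF384. In shControl it read 0.81, 0.84 and 0.77. The knockdown libraries were at or near the upper bound of the scale, where groups cannot separate further. The differences from shControl ran from 0.153 in shPABPN1 to 0.193 (SE 0.0278) in shHDAC1, shSF3B4 and shZNF384.

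MME, neprilysin, a metallopeptidase of the cell surface, had the largest mean difference of the 9, −0.347 over the 12 knockdown libraries. It read 0.36 and 0.37 in shHDAC1, 0.45 and 0.33 in shPABPN1, 0.36 and 0.3 in shPCBP2, 0.38 and 0.41 in shSF3B4, 0.39 and 0.52 in shU2AF2, and 0.41 and 0.44 in shZNF384. The shControl libraries stood at 0.62, 0.7 and 0.9, the widest control spread of the 9 genes. Proximal use was the main form in 11 of the 12 knockdown libraries and distal use in all 3 controls. The difference ran from −0.285 in shU2AF2 to −0.41 (SE 0.0753) in shPCBP2, and all neighbouring knockdowns overlapped.

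**Figure D3:**
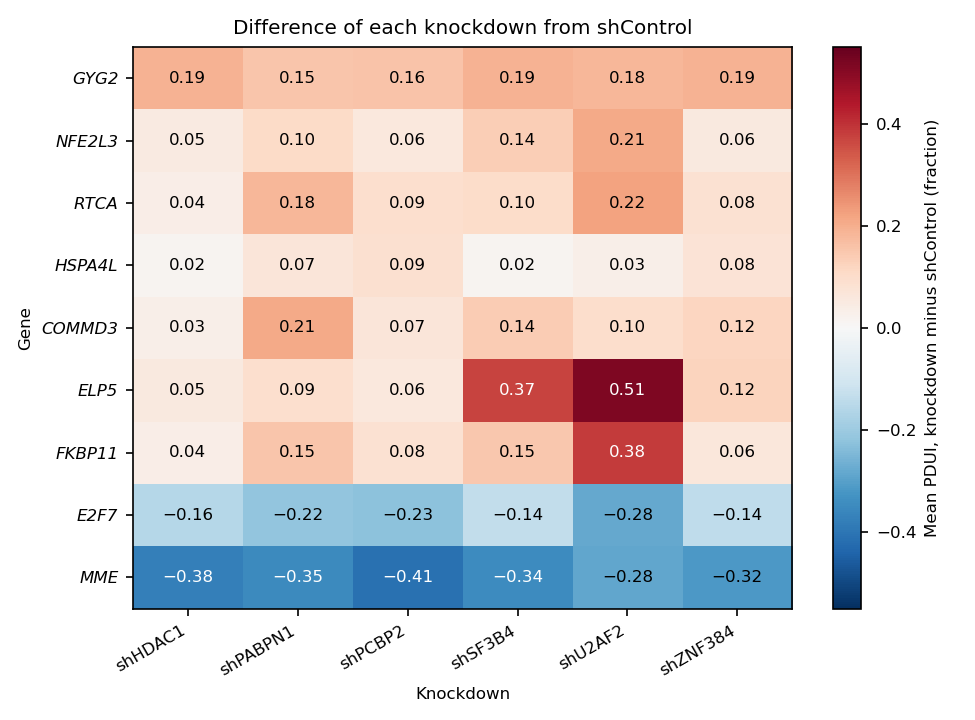
Mean PDUI of each knockdown minus that of shControl (fraction) for the 9 genes in rows and the 6 knockdowns in columns. Red is higher and blue lower than shControl. ELP5 in shU2AF2 (0.51) and shSF3B4 (0.37) and FKBP11 in shU2AF2 (0.38) are the largest positive differences, and the row of GYG2 runs from 0.15 to 0.19.

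shHDAC1 was the knockdown closest to shControl in 6 of the 9 genes, though level with shSF3B4 in HSPA4L. It was the farthest (level with shSF3B4 and shZNF384) in GYG2. shU2AF2 was the farthest in 5 genes: ELP5, FKBP11, NFE2L3, RTCA and E2F7. How often each knockdown was closest or farthest over all genes was not counted. Over all genes limma called shHDAC1 against shControl least often of the 6 (0.0243%) and shU2AF2 most often (7.27%). The order is therefore not read as a trait of the 9 genes. With libraries centred, the closest knockdown became shZNF384 in NFE2L3 and FKBP11 and shPCBP2 in ELP5 and GYG2. The farthest became shPABPN1 in RTCA (0.203, against 0.198 in shU2AF2) and in HSPA4L (0.0883, against 0.0533 in shPCBP2), and in GYG2 shHDAC1 and shPABPN1 were then level.

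Differences among the 6 knockdowns use shControl only in the estimate of the spread, and could be tested. A moderated F-test in limma, fitted over all genes, passed in 6 of the 9 at an adjusted p under 0.05: NFE2L3 (adjusted p = 0.00454), RTCA (0.0138), HSPA4L (0.000507), COMMD3 (0.00174), ELP5 (0.00053) and FKBP11 (0.000994). Of all 11463 genes tested, 1474 passed, or 12.9%. The genes were chosen for displacement, and the spread within groups entered both the choice and this test, so the count is not independent of the choice. In HSPA4L that spread (SD within knockdowns 0.00645) was below the 0.01 step of the values, so rounding enters its result. GYG2, E2F7 and MME did not pass (adjusted p = 0.75, 0.18 and 0.836). Their knockdown means ranged from 0.96 to 1 in GYG2, from 0.675 to 0.82 in E2F7 and from 0.33 to 0.455 in MME, which does not show them to be equal. With libraries centred HSPA4L no longer passed (adjusted p = 0.14), and without shU2AF2 replicate 2 RTCA did not (adjusted p = 0.0564).

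Each knockdown was then compared with the mean of the other 5. By limma, 17 of the 54 comparisons of a gene and a knockdown passed, 9 higher and 8 lower, against 5.43% of all such comparisons in the table. The 9 genes were chosen for displacement from shControl and the table's genes were not. This count and those for single knockdowns are therefore not independent of the choice, and nothing about the 9 genes as a set is read from them. The 6 comparisons of a gene depend on each other, since every group also enters the mean that the rest are set against. A group far from the rest therefore moves the others the opposite way, as shU2AF2 and shSF3B4 do for ELP5. ELP5 was higher in shU2AF2 than in the others (0.895 against 0.522, adjusted p = 0.000246) and in shSF3B4 (0.755 against 0.55, adjusted p = 0.00687). It was lower in shHDAC1 (0.435 against 0.614, adjusted p = 0.0161), shPABPN1 (0.475 against 0.606, adjusted p = 0.0428) and shPCBP2 (0.44 against 0.613, adjusted p = 0.0489). FKBP11 was higher in shU2AF2 (1 against 0.714, adjusted p = 0.000165). NFE2L3 was higher there as well (0.33 against 0.201, adjusted p = 0.00145), and so was RTCA (0.465 against 0.342, adjusted p = 0.0108). For shU2AF2 that made 4 of 9 genes, against 6.49% of the table.

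COMMD3 stood apart in another knockdown, being higher in shPABPN1 than in the others (0.39 against 0.274, adjusted p = 0.00147 by limma). shHDAC1 was lower than the others in 5 of the 9 genes, against 5.84% of the table called in either direction. These were RTCA (0.28 against 0.379), HSPA4L (0.15 against 0.189), COMMD3 (0.215 against 0.309), ELP5 and FKBP11 (0.655 against 0.783). HSPA4L was also lower in shSF3B4 (0.15 against 0.189) and higher in shPCBP2 (0.22 against 0.175), shZNF384 (0.21 against 0.177) and shPABPN1 (0.2 against 0.179). Its SD within knockdowns, 0.00645, was below the 0.01 step of the values, so rounding enters its SE and these calls. No HSPA4L comparison passed with libraries centred. The remaining background shares were 11.2% for shPABPN1, 6.99% for shSF3B4, 1.39% for shPCBP2 and 0.646% for shZNF384. No comparison of GYG2, E2F7 or MME passed. With libraries centred 7 comparisons passed, 6 of them among the 17: NFE2L3 in shU2AF2, COMMD3 in shPABPN1, ELP5 in shHDAC1, shSF3B4 and shU2AF2, and FKBP11 in shU2AF2. The other was RTCA, then higher in shPABPN1 (difference 0.127, adjusted p = 0.0315 by limma), while its call in shU2AF2 was lost (adjusted p = 0.066). Without shHDAC1 replicate 1 there were 8, without shHDAC1 replicate 2 there were 9, and without shPCBP2 replicate 1 or the second shSF3B4 library there were 11.

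**Figure D4:**
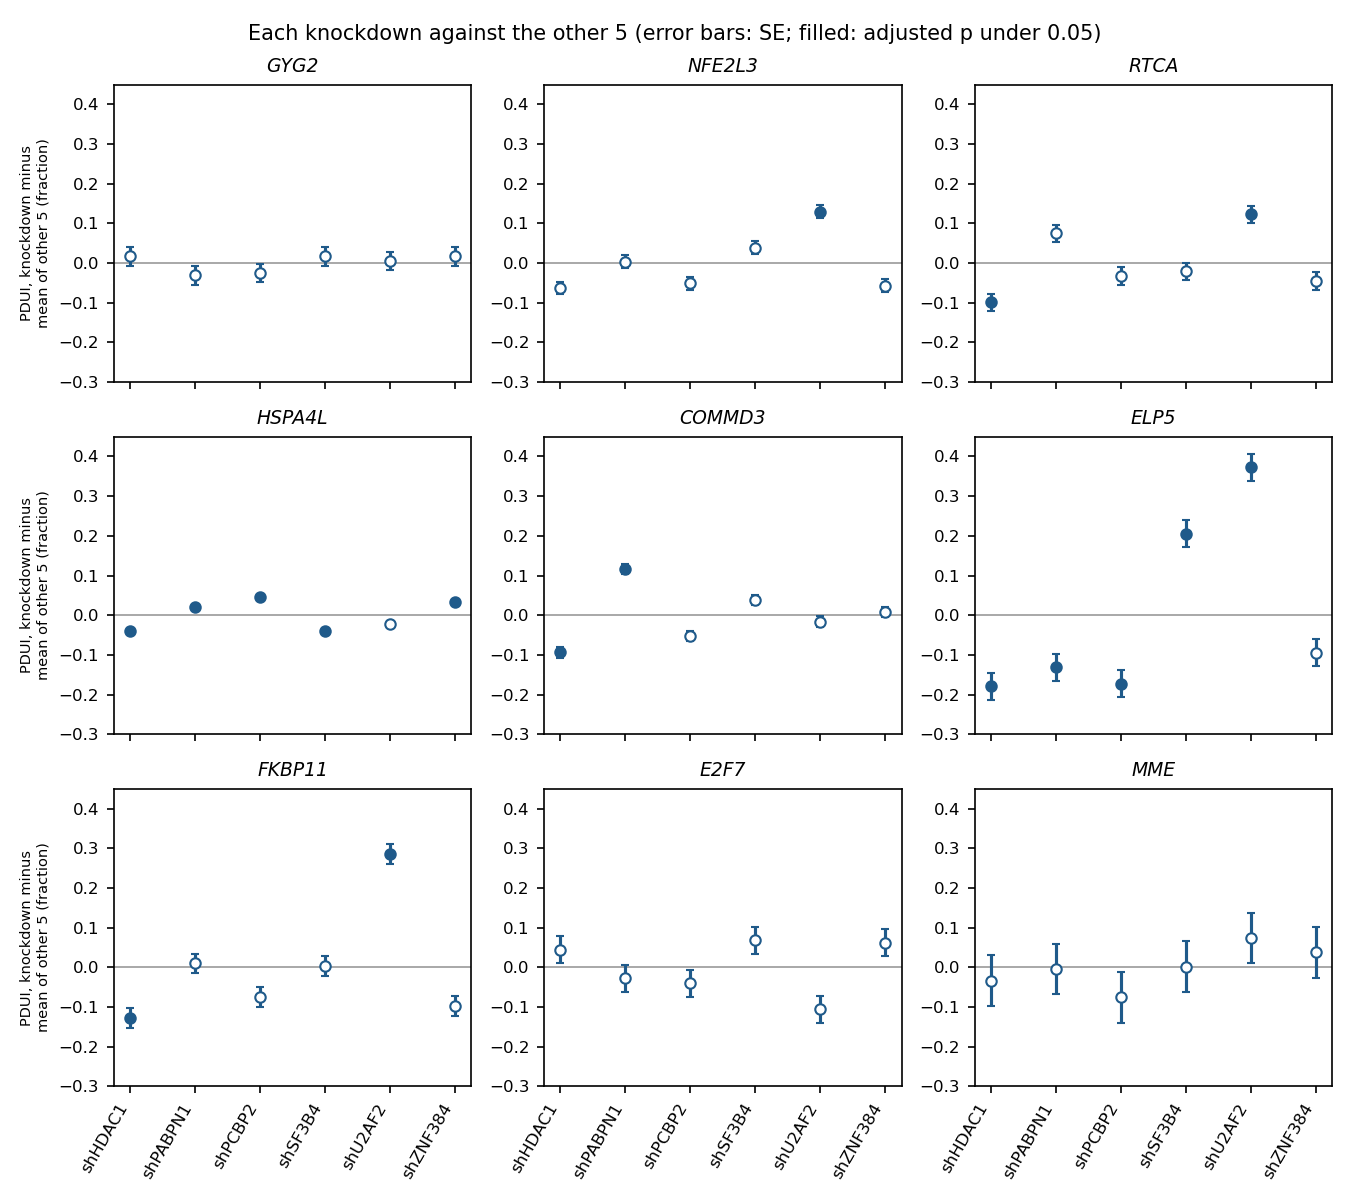
PDUI of each knockdown minus the mean of the other 5 (fraction, vertical axis), with SE from limma as error bars. Filled points had an adjusted p under 0.05. ELP5, FKBP11, NFE2L3 and RTCA are high in shU2AF2, COMMD3 in shPABPN1, and no point of GYG2, E2F7 or MME is filled.

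Relatives of the 9 genes, listed by family or complex, were set against shControl. Of 96 symbols, older names included, 73 were in the table, and 436 comparisons could be tested. limma called 12 of them (2.75%), 11 higher and 1 lower. Among all genes, 3.34% of such comparisons were called, 2.76% higher and 0.577% lower. The shares for single knockdowns in the table were 0.0243% in shHDAC1, 4.72% in shPABPN1, 1.17% in shPCBP2, 5.42% in shSF3B4, 7.27% in shU2AF2 and 1.5% in shZNF384. All 12 calls fell in shPABPN1 (5), shSF3B4 (4) and shU2AF2 (3). The median difference was 0.00833 over the tested comparisons of the relatives. Of the 12 calls, 8 also passed without shControl replicate 1 and 5 with libraries centred. The 7 lost with centring were HSPA4, HSPH1, FKBP7, FKBP15, E2F6 and TFDP2 in shSF3B4 and in shU2AF2. Without shControl replicate 1 there were 14 calls in all, 9 higher and 5 lower, and without shU2AF2 replicate 2 there were 7, all higher.

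TFDP2, the dimer partner of E2F factors, was the one relative called in several knockdowns, though with libraries centred only in shPABPN1 (adjusted p = 0.00959 by limma, against 0.275 in shSF3B4 and 0.0538 in shU2AF2). It stood at 0.385 ± 0.00707 in shPABPN1, 0.32 ± 0.0141 in shSF3B4 and 0.365 ± 0.0495 in shU2AF2 (SD, n = 2 each), against 0.2 ± 0.01 in shControl (SD, n = 3). The adjusted p by limma was 0.00552, 0.0394 and 0.0065. The call in shSF3B4 was lost without shControl replicate 1 (adjusted p = 0.0937). Of 10 genes of the E2F, DP and pocket protein list in the table, E2F6 was the other one called, at 0.53 ± 0.0283 in shU2AF2 and 0.317 ± 0.0404 in shControl (adjusted p = 0.0342 by limma, 0.0933 without shControl replicate 1 and 0.0629 with libraries centred). Its transcript is annotated as a target of nonsense-mediated decay.

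Of 7 Elongator genes in the table, ELP2, a scaffold subunit, and DPH3, which acts with Elongator, were called, both higher in shPABPN1. ELP2 stood at 0.44 ± 0.0141 in shPABPN1 and 0.24 ± 0.0458 in shControl, and DPH3 at 0.435 ± 0.0495 and 0.273 ± 0.0252 in the same groups (limma, adjusted p = 0.00548 for each). The last exon of ELP2 overlaps AC023043.1 on the opposite strand. Of 11 HSP110 and HSP70 genes, 3 were called higher. HSPA4, the closest relative of HSPA4L, stood at 0.35 ± 0.0141 in shPABPN1 and 0.227 ± 0.0306 in shControl (adjusted p = 0.00331 by limma, and 0.0507 with libraries centred). HSPA14 was called in shPABPN1 (0.465 ± 0.134 against 0.19 ± 0.0265 in shControl, adjusted p = 0.0234 by limma) and HSPH1 in shSF3B4 (adjusted p = 0.0435), where its difference of 0.0267 turned to −0.0017 with libraries centred.

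Of 8 genes for RNA end processing, ZBTB8OS, the archease of the RNA ligase complex, was called in shU2AF2. It stood at 0.975 ± 0.0354 there and at 0.583 ± 0.0153 in shControl (limma, adjusted p = 0.0284, and 0.0707 without shControl replicate 1). Of 9 FKBP genes, FKBP7 was higher in shSF3B4 (0.36 ± 0.0424 against 0.23 ± 0.0265 in shControl, adjusted p = 0.0221 by limma, and 0.299 with libraries centred) and FKBP15 lower, at 0.115 ± 0.00707 in shSF3B4 and 0.23 ± 0.0458 in shControl (adjusted p = 0.0464 by limma, 0.0908 without shControl replicate 1 and 0.125 with libraries centred). No gene was called among 9 for glycogen metabolism, 6 CNC and small MAF factors, 11 of the COMMD complex and 2 metallopeptidases of the MME family.

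The gene whose values over the 15 libraries followed those of a member most closely was found for each by Pearson correlation, among 9292 genes (9293 for HSPA4L) with a value in every library and a range of at least 0.1. These are descriptions, since libraries of a group share their hairpin and so many genes were searched. ELP5 was followed by RRP7A, a ribosomal RNA processing factor (r = 0.984), and FKBP11 by SMARCA5, a chromatin remodelling ATPase (r = 0.968). The best match was CHAF1B for RTCA (r = 0.943), NOSIP for NFE2L3 (r = 0.935), SACM1L for E2F7 (r = 0.911), ADH5 for COMMD3 (r = 0.908), RPS6KA3 for HSPA4L (r = 0.907), CYP4F26P for GYG2 (r = 0.885) and SEMA3F-AS1 for MME (r = 0.744). These r include the step between knockdowns and shControl on which the 9 genes were chosen. Over the 12 knockdown libraries alone r was 0.165 for SEMA3F-AS1 with MME, 0.505 for CYP4F26P with GYG2, 0.741 for SACM1L with E2F7 and between 0.909 and 0.989 for the other 6 pairs. SACM1L and SEMA3F-AS1 were also lower than every control library in all 12 knockdown libraries. SACM1L ranged from 0.64 to 0.83 in the knockdowns and from 0.84 to 0.92 in shControl. RRP7A ranged from 0.09 to 0.4 in the knockdowns and from 0.08 to 0.09 in shControl, so its ranges met.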

How the data were processed

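RNA of 15 HEK293T libraries was sequenced, and the authors deposited 1 table of PDUI values in the unit fraction, from 0.001 to 1, with 2 decimals apart from 1287 entries at 0.001. The genome build is hg38, per the submitters' processing notes. Aligner, PDUI software and gene models: not given in the sources used here. Read counts are absent from the table, so depth is unknown and no interval or floor that needs it is given. Libraries were grouped by title. The 2 shSF3B4 samples have other replicate numbers in their titles than in their library names, so both columns were assigned to the group only. Separate cultures are not mentioned for replicates, so p-values measure only the spread between these libraries.

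The deposited fractions were fitted untransformed with limma 3.58.1 (R 4.3.3), with 1 mean per group, all 15 libraries and eBayes with a trend (8 residual and 1.06 prior degrees of freedom). The F-test and the comparisons with the other 5 knockdowns used the genes with a value in all 12 knockdown libraries. Comparisons with shControl needed both knockdown libraries and at least 2 controls. Tests were two-sided, with Benjamini-Hochberg adjustment over all genes tested and a threshold of 0.05. The code was tested on simulated data. The members, lists and tests were chosen with earlier results of these data known. Named were the 9 members, relatives called in at least 2 knockdowns or with the smallest adjusted p of their list, the gene most like each member, and table genes whose last exon overlaps a member's. DPH3 tied with ELP2 for the smallest. HSPH1, HSPA14, E2F6 and FKBP15 were named after their values were seen, to account for all 12 calls. Alternatives were centring on library medians, an arcsine square root scale, other sets of libraries or genes, no trend, a replicate block and leaving out each library. Last exons, transcript types and sequences come from GENCODE release 29, where 97.3% of the transcripts were matched by identifier.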

Additional observations from a re-analysis of the deposited data

Results flagged for a closer look

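For 6 genes the displacement from shControl differed in size between knockdowns by the moderated F-test among the 6 knockdowns (limma). The adjusted p was 0.00454 for NFE2L3, 0.0138 for RTCA, 0.000507 for HSPA4L, 0.00174 for COMMD3, 0.00053 for ELP5 and 0.000994 for FKBP11. Of all 11463 genes tested, 1474 passed, or 12.9%. The genes were chosen for displacement, and the spread within groups entered both the choice and this test. The count of 6 is therefore not independent of the choice, and nothing about the set is read from it. In HSPA4L the spread within knockdowns was below the step of the values, so rounding enters its result. In ELP5, FKBP11, NFE2L3 and RTCA shU2AF2 was the highest group, in COMMD3 shPABPN1 and in HSPA4L shPCBP2. With libraries centred shPABPN1 was the highest in RTCA and HSPA4L, and HSPA4L no longer passed (adjusted p = 0.14). The RTCA result was lost without shU2AF2 replicate 2.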

How the results depend on the processing

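The mean difference between the 12 knockdown libraries and shControl moved by less than the spread between replicates in 148 of 153 repeats. Centring was the only setting that could have turned its direction, given how the 9 genes were chosen, and it did not. Of 207 repeats of the F-test on single genes, 205 kept their side of the threshold. The exceptions were HSPA4L with libraries centred and RTCA without shU2AF2 replicate 2. Centring on library medians gave 904 genes in the F-test, against 1474 without it. It gave 7 member comparisons with the other 5 knockdowns, against 17, of which 6 were shared, and 6 calls among the relatives, against 12, of which 5 were shared. In a fit of each knockdown with shControl alone 2 relatives were called. The replicate block, which had to leave out shSF3B4, gave 654 genes, 7 member comparisons and 4 calls among relatives, and all 6 genes still passed the F-test. With the same libraries and no block there were 988 genes, 10 member comparisons and 9 calls among relatives. Equal replicate numbers gave no sign of pairing: differences between replicates 1 and 2 correlated between groups at r = −0.0254 to 0.0583. shSF3B4 was not part of that check. A shift common to all genes of a library would not show in these r, so a shared batch is not excluded. Leaving out 1 library gave 1097 to 1896 genes in the F-test, 5 to 6 members, 8 to 17 member comparisons and 7 to 14 calls among relatives (the lowest without shU2AF2 replicate 2). The 47 genes with all 12 knockdown libraries outside the control range became 137 to 186 without 1 shControl library, where the range is set by fewer values. The counts of that range, centring included, were added after seeing the data. Without read counts, the precision of single values is unknown.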

Other observations

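Beside the 9 genes, 38 others had all 12 knockdown libraries outside the range of the 3 shControl libraries. Those with the largest mean differences, named after their values were seen, were EXTL1 at 0.318, HSPB11 at 0.312, EEF1AKMT2 at 0.306, SEMA3F-AS1 at −0.278 and ZNF704 at 0.267. EXTL1 is a glycosyltransferase of the exostosin family, HSPB11 a subunit of intraflagellar transport and EEF1AKMT2 a lysine methyltransferase of a translation elongation factor. The set also held HNRNPA2B1, an RNA-binding protein, at 0.163. By size of the mean difference MME ranked 1 of the 47 and HSPA4L ranked 45. These are descriptions of the contrast on which the 9 genes were chosen.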
